A study of Mus musculus with 7 samples.

Results

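The cytochrome P450 genes of the mouse were placed against the lamin-associated domains (LADs) of embryonic fibroblasts. Members were the protein-coding genes of the RefSeq gene table (build GRCm38.p6, the same as mm10) whose symbol is Cyp followed by a digit. There were 99 of them on 15 chromosomes, of 21887 protein-coding genes in all. A gene was counted in a LAD when its midpoint lay inside one.

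The study used mouse embryonic fibroblast lines, named iMEF, which the submitters derived independently within a single mouse colony, and profiled them by CUT&RUN, in which a nuclease tethered to an antibody releases the DNA around its target. Of 7 libraries, 2 were for Lamin B1, which forms part of the lamina under the nuclear envelope, 2 for IgG as the control, 1 for each of 2 H3K9me2 antibodies (ab1220 and 39041) and 1 for H3K14ac. No treatment or genotype is named for single libraries, and each reaction held 500000 cells. The data used were 1 list of 1437 LADs that the authors deposited. Only its name calls it wild type and merged. It has a position for each domain and a score of 0 throughout. The list gives no value per library, so the read depth is unknown, no value below has a replicate error, and no test was run. The list also holds no expression values, so the fibroblast label could not be set against marker genes. Genes of 1 cluster share their location and are not independent observations, and counts are therefore given as descriptions beside the same count over all protein-coding genes.

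Cytochromes P450 are haem enzymes that insert oxygen into lipids, steroids, vitamins and foreign compounds. Members of the Cyp2, Cyp3 and Cyp4 families act mainly on drugs and fatty acids, are made mostly in liver, kidney, lung or gut, and sit in clusters that arose by gene duplication. The enzymes of steroid hormone, cholesterol and bile acid synthesis are mostly encoded by single genes with a fixed step each, and most of them are made only in a few organs. LADs are long stretches of chromatin at the nuclear periphery, generally poor in genes and low in transcription.

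The P450 genes lay in LADs in about equal number as outside. In a LAD were 52 of 99 (52.5%), where 23.8% of all protein-coding genes were. The body of 51 genes lay wholly inside a LAD and that of 46 had no overlap with one. A LAD border cut the remaining 2, Cyp2c55 and Cyp4x1. Borders cut 3.36% of all protein-coding genes. The 52 genes in LADs had their midpoint at 2.14 to 1185 kb from the nearest border, with a median of 268 kb, whereas the 47 genes outside were 6.15 to 5146 kb away, with a median of 1699.6 kb. More than 1 Mb from any LAD were 32 of the 47 (68.1%), beside 43.3% of all protein-coding genes outside LADs. Many of the 32 shared a LAD-free interval, with 10 in 1 on chromosome 15, 9 in 1 on chromosome 17 and 4 in 1 on chromosome 9. Over all protein-coding genes the median distance was 308 kb for those in LADs and 796 kb for those outside.

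**Figure D1:**
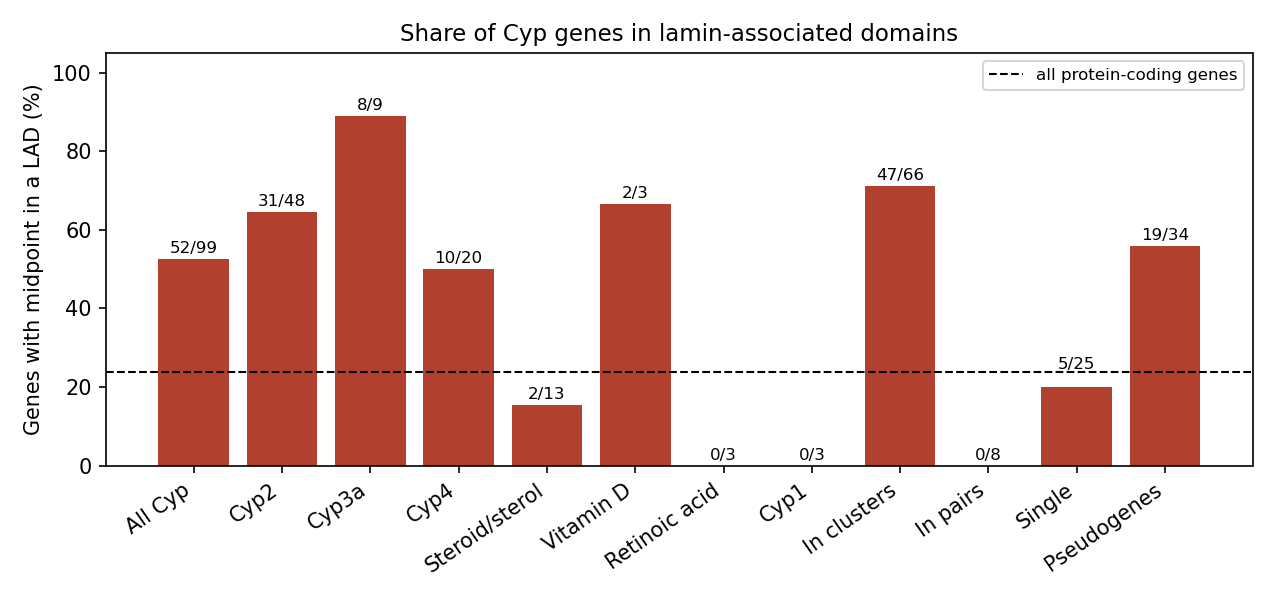
Percentage of genes with their midpoint in a LAD (bars, with the number of genes in LADs and in all above each) for the P450 genes, their families, functional lists and arrangement, and for Cyp pseudogenes. The dashed line is the 23.8% of all protein-coding genes, and the Cyp3a bar (8 of 9) stands highest while no retinoic acid, Cyp1 or paired gene was in a LAD.

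The families differed in their share. Of the Cyp2 genes, 31 of 48 (64.6%) were in LADs. The count was 8 of 9 (88.9%) for Cyp3a and 10 of 20 (50%) for Cyp4. Together 49 of these 77 genes (63.6%) were in LADs, against 3 of the 22 (13.6%) outside these families. Of the 13 steroid and sterol enzymes, 2 (15.4%) were in LADs. All these shares are to be read beside the 23.8% of all protein-coding genes.

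The genes were also counted by their arrangement. Neighbouring P450 genes at most 200 kb apart were taken as 1 group, called a cluster from 3 genes. In clusters, 47 of 66 genes (71.2%) were in LADs. Among single genes it was 5 of 25 (20%), and among genes in pairs 0 of 8. The share of single genes was near the 23.8% of all protein-coding genes, and that of clustered genes was above it. The share in clusters rested on few places. Those 47 genes lay in 5 LADs, and the other 5 P450 genes in LADs had a LAD each. The 10 LADs measured from 597 kb to 3.18 Mb, with a median of 1.45 Mb. Their hosts thus all exceeded 500 kb, which was also true of the hosts of 87.2% of all protein-coding genes in LADs. Counted by gene, the median host was shorter for P450 genes, 1170 kb beside 1785 kb for all protein-coding genes in LADs.

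**Figure D2:**
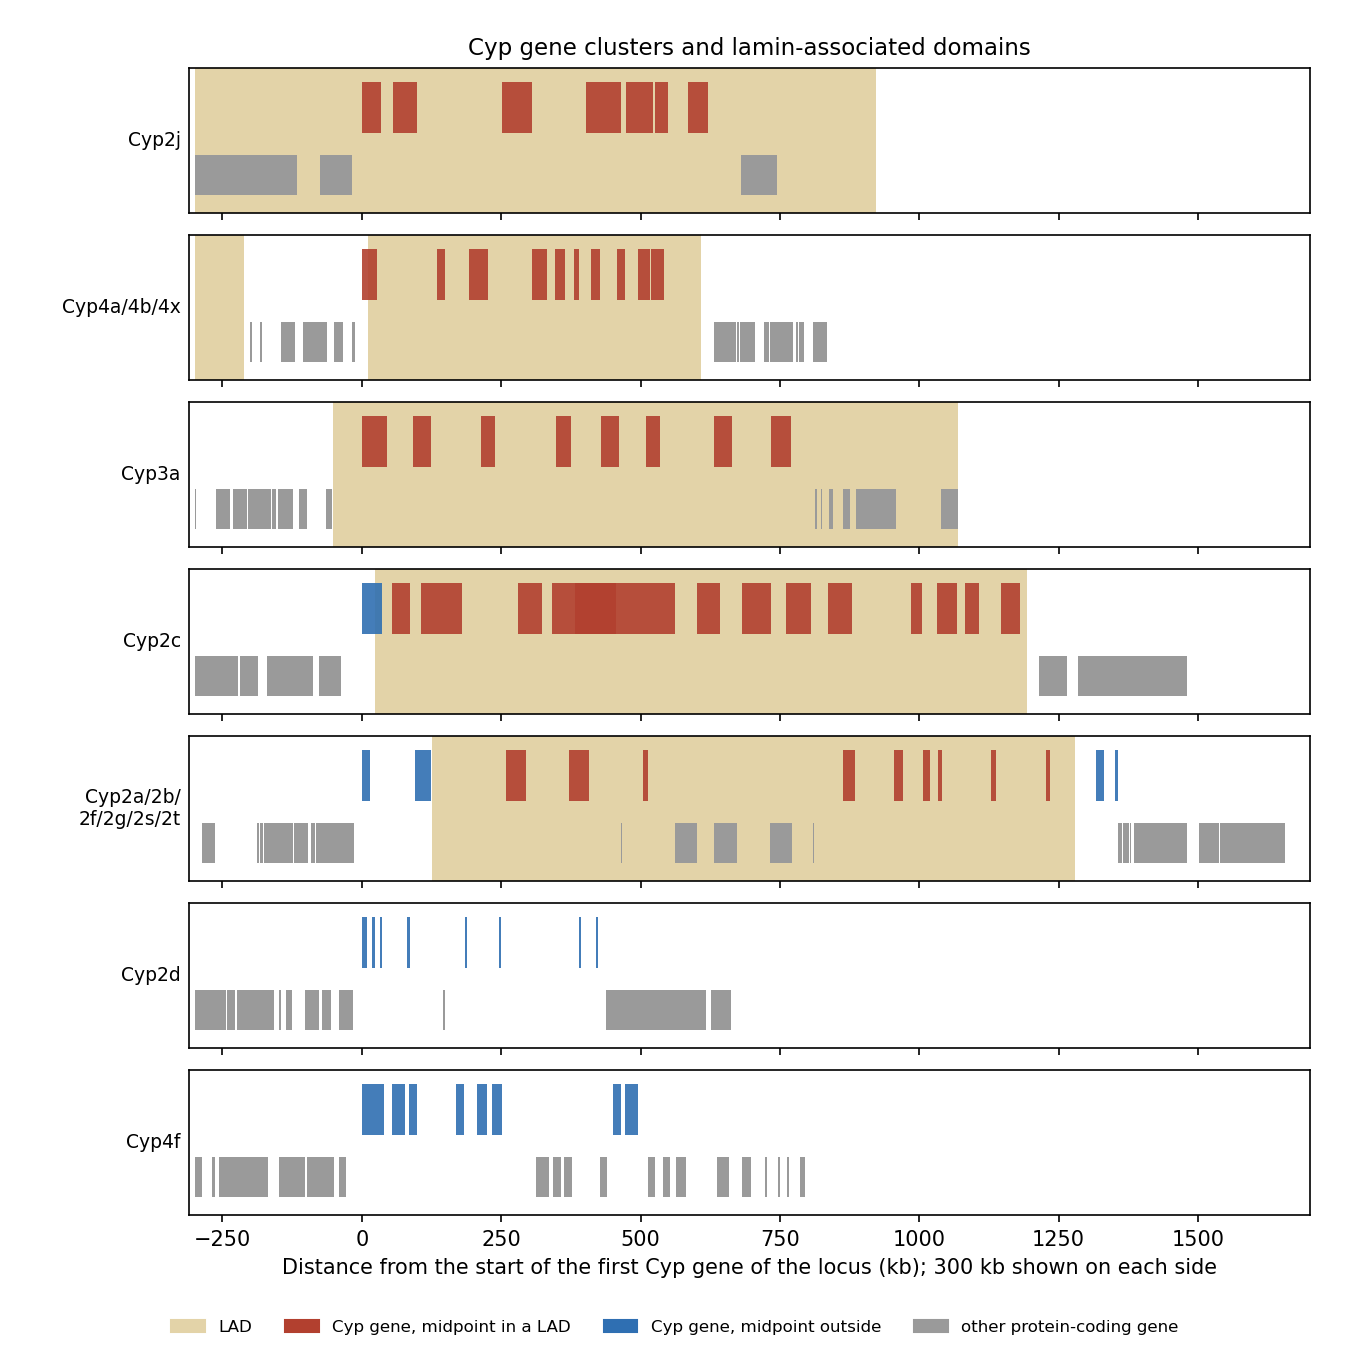
Maps of the 7 cluster loci, each with 300 kb on both sides. The x axis is the distance in kb from the start of the first P450 gene, shaded bands are LADs, upper boxes are P450 genes (red with the midpoint in a LAD, blue outside) and lower boxes are other protein-coding genes. The Cyp2c and Cyp4a loci each fill a LAD, the Cyp2a and Cyp2b locus has 2 P450 genes outside at each end, and no LAD reaches the Cyp2d and Cyp4f loci.

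The Cyp2c genes encode epoxygenases of arachidonic acid and hydroxylases of drugs and steroids in liver and gut. Their cluster on chromosome 19 (39006940 to 40187286) spanned 1.18 Mb with 14 genes, from Cyp2c55 to Cyp2c70. A LAD of 1.17 Mb (39030967 to 40200963) covered 98.0% of it and held 13 of the 14. No other protein-coding gene had its midpoint in this LAD. Cyp2c70, which makes the muricholic acids of rodent bile, was the last gene and ended 13.7 kb before the border. Cyp2c67 was the deepest in this LAD, with its midpoint 572 kb from the border. Beyond the ends, Hells, a chromatin remodeller of dividing cells, lay 80.6 kb outside the LAD, and Pdlim1, which encodes a protein of the actin cytoskeleton, lay 46.0 kb outside on the other end.

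The first border of that LAD crossed Cyp2c55, of which 32.8% was covered. Its midpoint lay 6.15 kb outside, and that of the next gene, Cyp2c65, 46.5 kb inside. The promoter windows of both, 250 bases before to 50 bases after the annotated start, are shown because the border runs between their start sites (RefSeq, GRCm38.p6, both on the + strand, chr19:39006769-39007068 and chr19:39060756-39061055). Capitals mark CG dinucleotides, the sites of DNA methylation.
Cyp2c55: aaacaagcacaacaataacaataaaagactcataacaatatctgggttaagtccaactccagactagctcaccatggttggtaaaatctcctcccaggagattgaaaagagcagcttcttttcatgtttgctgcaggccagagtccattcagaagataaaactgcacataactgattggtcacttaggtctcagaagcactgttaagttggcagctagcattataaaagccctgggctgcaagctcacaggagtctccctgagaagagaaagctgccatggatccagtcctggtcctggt
Cyp2c65: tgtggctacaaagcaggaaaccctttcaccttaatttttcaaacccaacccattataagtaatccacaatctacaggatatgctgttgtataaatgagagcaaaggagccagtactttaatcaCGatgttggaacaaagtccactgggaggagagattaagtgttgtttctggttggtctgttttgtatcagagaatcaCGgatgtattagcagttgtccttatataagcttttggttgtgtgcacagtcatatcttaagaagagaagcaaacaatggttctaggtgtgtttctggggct
The start of Cyp2c55 was 23.9 kb outside the border and that of Cyp2c65 30.0 kb inside. Aligned end to end with gaps, 188 of 300 bases (62.7%) were identical. No unrelated windows were aligned, here or below, so the identity of unrelated windows is not known. The window of Cyp2c55 had 0 CG dinucleotides and that of Cyp2c65 had 2, where the median over 17492 protein-coding genes was 13 (quartiles 4 and 24). Both windows held 1 match to TATAAA, counted on both strands, which 13.3% of those windows held at least once. Cyp2c23, an arachidonic acid epoxygenase of the kidney, is the remaining Cyp2c gene. It lay alone on the same chromosome (44005022 to 44029256) at 639 kb from the nearest LAD.

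The cluster of Cyp4x1, Cyp4b1 and the Cyp4a genes on chromosome 4 (115106323 to 115647721) also took up a LAD of its own. Cyp4a enzymes hydroxylate fatty acids at the end of the chain, and Cyp4a10 and Cyp4a14 are targets of the receptor PPARalpha in liver. The LAD of 597 kb (115118060 to 115715557) held all 10 genes of the cluster and no other protein-coding gene. The 8 Cyp4a genes were wholly inside, at 104 to 290.2 kb from a border. Cyp4b1, best known from lung, was the last gene of the cluster, with its midpoint 79.3 kb inside. Cyp4x1, a P450 of brain, was cut by the first border. It was covered to 57.7%, and its midpoint lay 2.14 kb inside, less than the spacing of 2.5 kb on which the borders of the list lie. Ahead of it, the midpoints of Pdzk1ip1 and of Tal1, a gene for a blood cell factor, were 26.8 and 54.0 kb outside the LAD, and that of Efcab14 was 42.0 kb outside at the far end.

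Cyp3a enzymes oxidise drugs and steroids, and Cyp3a11 is the main one of adult mouse liver. A cluster of 8 Cyp3a genes lay on chromosome 5 (145345149 to 146114978) in a LAD of 1.38 Mb (145294353 to 146674347). All 8 were wholly covered, from Cyp3a57 at 73.7 kb from the border to Cyp3a25 at 681 kb. Cyp3a11 itself was 573 kb inside. The border lay 50.8 kb before the first gene, and the zinc finger gene Zscan25 came 8.01 kb outside it. Past the cluster the LAD ran on for 559 kb and held 14 genes that are not P450 genes, among them Cdk8 and Wasf3.

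Cyp3a13, found in gut as well as liver, was the exception of its subfamily. It lay apart on the same chromosome (137892933 to 137925610) at 393 kb from the nearest LAD. Within 500 kb on each side it had 43 other protein-coding genes, none of them a P450 gene, where Cyp3a11 had 12, of which 5 were not P450 genes. The promoter windows of both are shown as the members of 1 subfamily placed in and out of a LAD (RefSeq, GRCm38.p6, both on the - strand, chr5:137921570-137921869 and chr5:145879805-145880104), with CG dinucleotides in capitals.
Cyp3a13: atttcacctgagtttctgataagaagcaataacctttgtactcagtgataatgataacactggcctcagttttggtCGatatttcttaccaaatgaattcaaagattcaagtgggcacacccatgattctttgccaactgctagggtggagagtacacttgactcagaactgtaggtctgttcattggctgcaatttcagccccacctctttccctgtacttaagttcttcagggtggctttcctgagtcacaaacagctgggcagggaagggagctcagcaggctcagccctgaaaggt
Cyp3a11: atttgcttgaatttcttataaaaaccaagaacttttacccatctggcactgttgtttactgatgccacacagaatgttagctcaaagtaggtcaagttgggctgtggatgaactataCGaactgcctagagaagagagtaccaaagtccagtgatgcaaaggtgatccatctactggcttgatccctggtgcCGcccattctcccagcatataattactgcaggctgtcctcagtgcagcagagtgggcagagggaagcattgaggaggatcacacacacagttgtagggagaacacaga
In these windows 193 of 300 bases (64.3%) were identical. There was 1 CG dinucleotide for Cyp3a13 and 2 for Cyp3a11.

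The Cyp2j genes encode epoxygenases of arachidonic acid, with Cyp2j5 abundant in kidney and liver. Their 7 genes on chromosome 4 (96042660 to 96664171) were the deepest of the P450 clusters. The LAD around them measured 3.18 Mb (95460622 to 98643111). The first gene, Cyp2j13, had its midpoint 599 kb from the nearest border, and the last, Cyp2j5, 1185 kb. Cyp2j9 (1119.9 kb), Cyp2j6 (1079.6 kb) and Cyp2j8 (1015 kb) were also among the 5 deepest P450 genes. This LAD was not limited to the cluster. It held 6 other protein-coding genes, of which Fggy and Hook1 lay before the cluster and Gm12695 and the transcription factor gene Nfia after it.

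The Cyp2a and Cyp2b genes on chromosome 7 shared a locus with Cyp2f2, Cyp2g1, Cyp2s1 and Cyp2t4. Its genes formed 2 clusters under the 200 kb rule, Cyp2s1 to Cyp2a4 (25802469 to 26315088) and Cyp2b23 to Cyp2t4 (26665227 to 27158564), and 1 LAD of 1.15 Mb (25927546 to 27082541) reached into both. It covered 75.6% of the former and 84.6% of the latter. Of the former cluster 3 of 5 genes were inside, and of the latter 6 of 8. The genes inside were Cyp2b13 and Cyp2b9, both liver enzymes, Cyp2a4, Cyp2b23, Cyp2b19 of skin, Cyp2g1 of olfactory mucosa, and Cyp2a5, Cyp2a22 and Cyp2a12. They were at 49.6 kb (Cyp2a12) to 407 kb (Cyp2b23) from a border. The other 5 genes of this LAD were the vomeronasal receptors Vmn1r184 and Vmn1r185 and the oocyte genes Nlrp9c, Nlrp4a and Nlrp9a.

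Outside the LAD were 2 genes at each end of the locus. Cyp2s1, a P450 of epithelia, lay 118 kb outside, and Cyp2b10, the phenobarbital-inducible enzyme of liver, 15.4 kb outside. At the far end were Cyp2f2 of the airway Club cells at 44.3 kb and Cyp2t4 at 73.6 kb. The genes that followed on each side were Axl, a receptor kinase gene, at 155 kb and Egln2, an oxygen sensor gene, at 80.2 kb, both outside. Cyp2b10 was therefore the only 1 of 5 Cyp2b genes outside a LAD. Its whole body lay on the LAD-free side, with the border less than 1 step of the 2.5 kb grid past its end.

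The promoter windows of Cyp2b10 and its neighbour Cyp2b13 are shown because these relatives lie on the 2 sides of this border (RefSeq, GRCm38.p6, both on the + strand, chr7:25897408-25897707 and chr7:26061245-26061544). Capitals mark CG dinucleotides.
Cyp2b10: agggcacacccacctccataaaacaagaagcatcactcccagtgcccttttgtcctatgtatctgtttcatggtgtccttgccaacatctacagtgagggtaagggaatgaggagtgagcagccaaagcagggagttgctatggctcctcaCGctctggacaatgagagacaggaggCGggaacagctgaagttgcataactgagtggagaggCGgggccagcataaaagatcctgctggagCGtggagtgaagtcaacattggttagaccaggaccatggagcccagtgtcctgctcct
Cyp2b13: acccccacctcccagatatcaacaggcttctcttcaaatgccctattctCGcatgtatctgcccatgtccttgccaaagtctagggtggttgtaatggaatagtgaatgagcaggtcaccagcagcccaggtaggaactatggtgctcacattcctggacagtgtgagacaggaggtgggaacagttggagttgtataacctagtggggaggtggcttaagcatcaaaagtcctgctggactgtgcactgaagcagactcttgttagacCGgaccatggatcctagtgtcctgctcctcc
The start of Cyp2b10 was 29.9 kb outside the LAD and that of Cyp2b13 134 kb inside. In the alignment 229 of 300 bases (76.3%) were identical, with 4 CG dinucleotides in the window of Cyp2b10 and 2 in that of Cyp2b13. Between Cyp2b13 and Cyp2b9, both inside the LAD, 298 of 300 bases (99.3%) were identical. How reads that match such near-identical copies were assigned is not given in the sources used here.

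The Cyp2d and Cyp4f clusters had the opposite placement. Cyp2d enzymes act on drugs and steroids in liver and kidney. All 8 Cyp2d genes lay on chromosome 15 (82370527 to 82794452), in a LAD-free interval of 14.1 Mb that also held Cyp11b1 and Cyp11b2. Their distance to the nearest LAD ran from 3769 kb for Cyp2d26 to 4186 kb for Cyp2d22. Next to the cluster lay Ndufa6, a gene of mitochondrial respiration, and Tcf20, a transcription factor gene, which were 4209 and 3663 kb from a LAD.

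The Cyp4f enzymes inactivate leukotrienes and hydroxylate long fatty acids. On chromosome 17, 6 genes from Cyp4f39 to Cyp4f15 (32452697 to 32703352) formed a cluster, and Cyp4f14 and Cyp4f13 (32903357 to 32947415) followed just past the 200 kb limit and counted as a pair. These genes were 3533 to 3996 kb from the nearest LAD, in a LAD-free interval of 12.9 Mb that also held Cyp21a1. Zinc finger genes such as Zfp871 and Zfp870 lay between and around them, also outside LADs. Cyp4f18, a Cyp4f gene of white blood cells, lay alone on chromosome 8 (71988482 to 72009668), 1376 kb from a LAD. No Cyp4f gene (0 of 9) and no Cyp2d gene (0 of 8) was in a LAD. All 8 Cyp4a, 7 Cyp2j and 4 Cyp2a genes were, beside 23.8% of all protein-coding genes. Clusters of 1 family thus lay on both sides, with Cyp2c and Cyp2j inside and Cyp2d outside, and with Cyp4a inside and Cyp4f outside.

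The spacing of P450 genes was given by the length of a cluster per gene. It was 84.3 kb for Cyp2c, 88.8 kb for Cyp2j, 96.2 kb for Cyp3a and 54.1 kb for Cyp4x1 to Cyp4b1, which are in LADs. It was 103 kb for Cyp2s1 to Cyp2a4 and 61.7 kb for Cyp2b23 to Cyp2t4, which a LAD covers in part. Outside LADs it was 53.0 kb for Cyp2d and 41.8 kb for Cyp4f39 to Cyp4f15. Under the 200 kb limit both were below each of the others, Cyp2d only slightly below the 54.1 kb of Cyp4x1 to Cyp4b1. The Cyp4f value leaves out Cyp4f14 and Cyp4f13, just past that limit. Spacing was not computed under other limits, so this order may depend on it.

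**Figure D3:**
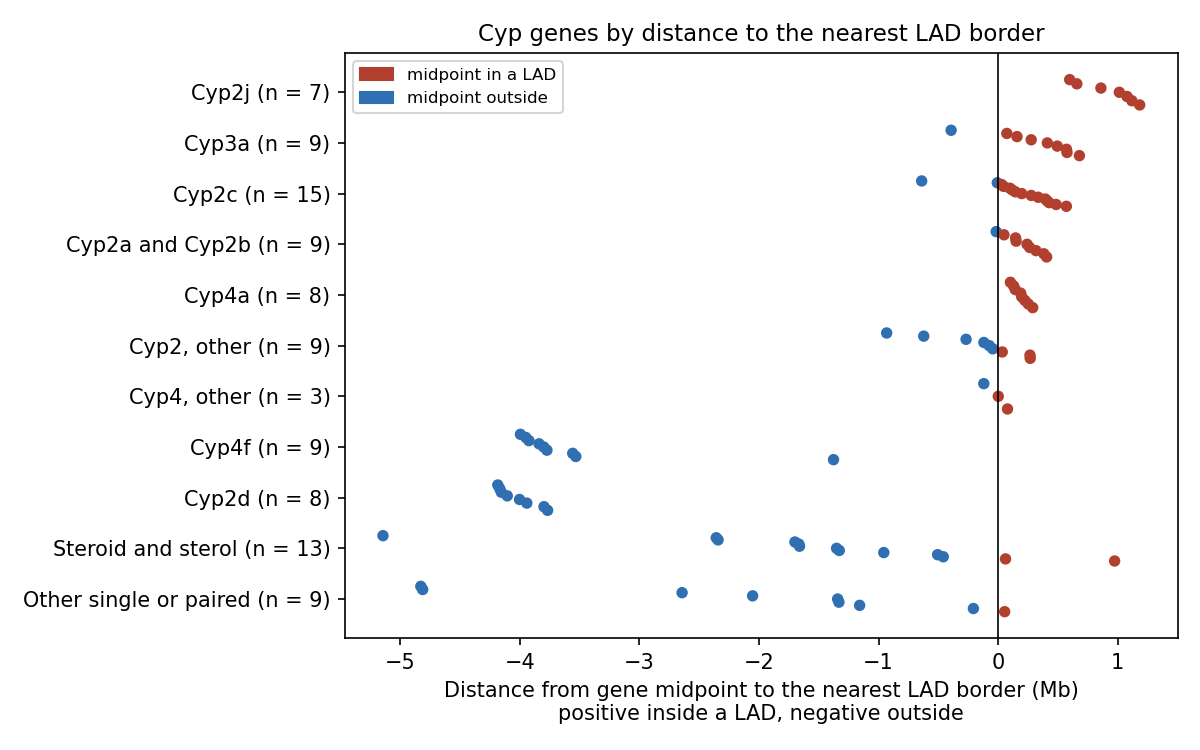
Distance in Mb from the midpoint of each of the 99 P450 genes to the nearest LAD border, by group, with genes in LADs (red) right of 0 and genes outside (blue) left of it. The Cyp2d genes and 8 of the 9 Cyp4f genes stand more than 3.5 Mb outside, and Cyp2c and Cyp3a each have genes on both sides of 0.

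The 6 P450 genes of steroid hormone synthesis were outside LADs. Cyp11a1, which cleaves the side chain of cholesterol in the first step, lay on chromosome 9 (57998024 to 58027031) at 5146 kb from the nearest LAD, the greatest distance among the 99 genes. Cyp19a1, the aromatase that makes oestrogens, lay on the same chromosome (54165937 to 54268164) at 1351 kb. Both shared a LAD-free interval of 15.1 Mb with Cyp1a1 and Cyp1a2, the second longest of 1416 such intervals. Cyp11b1 (2342 kb) and Cyp11b2 (2357 kb), which complete corticosterone and aldosterone, lay side by side on chromosome 15. Cyp21a1, the adrenal hydroxylase within the major histocompatibility complex, was at 1666 kb on chromosome 17 (34801348 to 34804426). Cyp17a1, needed for androgens, was at 1328 kb on chromosome 19 (46667165 to 46673000).

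Of the 7 P450 genes of sterol and bile acid synthesis and breakdown, 2 lay in LADs. Both lists are short, and their counts, 0 of 6 and 2 of 7, were not tested against the 23.8% of all protein-coding genes. Cyp7a1, the rate-limiting enzyme of bile acid synthesis in liver, was wholly inside a LAD of 1.52 Mb on chromosome 4 (gene 6265612 to 6275632, LAD 4808409 to 6333403), with its midpoint 62.8 kb from the border. Cyp7b1, the oxysterol hydroxylase of the alternative route, was wholly inside a LAD of 2.88 Mb on chromosome 3 (gene 18071944 to 18243890, LAD 16253559 to 19133549) and 976 kb deep, the fifth deepest P450 gene. The other genes lay outside. Cyp8b1, which directs synthesis towards cholic acid, was at 1661 kb, and Cyp27a1, the mitochondrial sterol hydroxylase, at 956 kb. Cyp39a1, another oxysterol hydroxylase, was at 505 kb, and Cyp46a1, which removes cholesterol from brain, at 458 kb. Cyp51, the lanosterol demethylase of cholesterol synthesis in nearly all cells, was 1699.6 kb away. It lay ahead of the first LAD of chromosome 5 (4080674 to 4104697).

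The genes for vitamin D, retinoic acid and the Cyp1 enzymes came in lists of 3, too short to be read against the 23.8% of all protein-coding genes, and are given by place only. The vitamin D enzymes were divided. Cyp2r1, which makes the circulating form in liver, was wholly in a LAD of 1.77 Mb on chromosome 7 (gene 114550123 to 114563048, LAD 114287266 to 116062259), 269 kb from the border. Cyp24a1, which inactivates vitamin D, was wholly in a LAD of 1.86 Mb on chromosome 2 (gene 170482957 to 170497145), 55.7 kb from the border. Cyp27b1, which makes the active hormone in kidney, lay on chromosome 10 (127048246 to 127054884) at 206 kb outside. None of the 3 genes for retinoic acid breakdown was in a LAD. Cyp26a1 (1331 kb) and Cyp26c1 (1342 kb) lay side by side on chromosome 19, and Cyp26b1 was at 2053 kb on chromosome 6. The Cyp1 genes, targets of the aryl hydrocarbon receptor, were outside as well. Cyp1a1 (4829 kb) and Cyp1a2 (4814 kb) were among the 5 farthest genes with Cyp11a1, Cyp2d22 and Cyp2d11, and Cyp1b1, the Cyp1 gene known to be expressed in mouse embryo fibroblasts, was at 1158 kb on chromosome 17 (79706940 to 79715061).

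Cyp51 and Cyp2r1 are shown as single genes placed out of and in a LAD (RefSeq, GRCm38.p6, both on the - strand, chr5:4104648-4104947 and chr7:114562923-114563222), with CG dinucleotides in capitals.
Cyp51: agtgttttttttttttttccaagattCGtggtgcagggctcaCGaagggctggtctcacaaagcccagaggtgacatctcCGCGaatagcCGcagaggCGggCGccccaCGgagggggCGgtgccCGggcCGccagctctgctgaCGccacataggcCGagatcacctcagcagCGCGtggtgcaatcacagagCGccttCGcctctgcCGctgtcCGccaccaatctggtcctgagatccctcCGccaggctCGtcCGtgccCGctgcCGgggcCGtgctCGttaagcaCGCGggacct
Cyp2r1: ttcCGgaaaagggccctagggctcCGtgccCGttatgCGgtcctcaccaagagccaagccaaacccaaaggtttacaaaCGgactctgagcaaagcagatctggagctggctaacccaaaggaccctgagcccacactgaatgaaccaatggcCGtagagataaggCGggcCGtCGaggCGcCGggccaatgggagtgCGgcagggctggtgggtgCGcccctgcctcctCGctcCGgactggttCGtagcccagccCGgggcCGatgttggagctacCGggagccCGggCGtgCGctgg
The window of Cyp51 had 28 CG dinucleotides and that of Cyp2r1 had 22, both above the median of 13 over protein-coding genes. The window of Cyp2e1, also a single gene in a LAD, had 4. Of single genes outside LADs, Cyp1b1 had 16 and Cyp19a1 had 6. These windows, like the pairs above, are picked examples, and their counts do not describe the genes in and out of LADs. Beyond these examples, promoter composition was not compared over the members in and out of LADs. The promoter table matched 77 of the 99 genes (77.8%), and a comparison over fewer than 80% was taken as void.

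The remaining single genes were mostly outside. Cyp2e1, which oxidises ethanol in liver, was the fifth single gene in a LAD. It lay on chromosome 7 (140763819 to 140774990), 35.3 kb from the end of a LAD of 677 kb that also held 24 other protein-coding genes, most of them olfactory receptors. Cyp20a1 was at 2643 kb, Cyp2w1 at 932 kb, Cyp2u1, a fatty acid hydroxylase, at 622 kb, Cyp2ab1 at 267 kb and Cyp4v3, which acts on fatty acids in the eye and elsewhere, at 119 kb from the nearest LAD.

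The surroundings of the members, which their choice did not use, were counted within 500 kb on each side. P450 genes in LADs had 2 to 47 other protein-coding genes there, P450 genes included, with a median of 12, and those outside 2 to 64 with a median of 23. For all protein-coding genes, counted in the same way, the medians were 12 in LADs and 16 outside. Without the P450 neighbours the medians of the members were 5.5 in LADs and 17 outside. Cyp2e1 had the 47 neighbours, and the next highest value in a LAD was 25, for Cyp2a12. LADs took up 53.1% to 100% of the window around P450 genes in LADs. Around those outside it was 0% to 49.4%. It was exactly 0% for 37 of the 47 (78.7%), beside 61.9% of all protein-coding genes outside LADs. For genes in LADs the median share was lower among the members, 76.8% beside 88.1% of all protein-coding genes. The window contains the gene itself, and long LADs and long gaps fill most of it, so these shares largely follow from the placement.

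**Figure D4:**
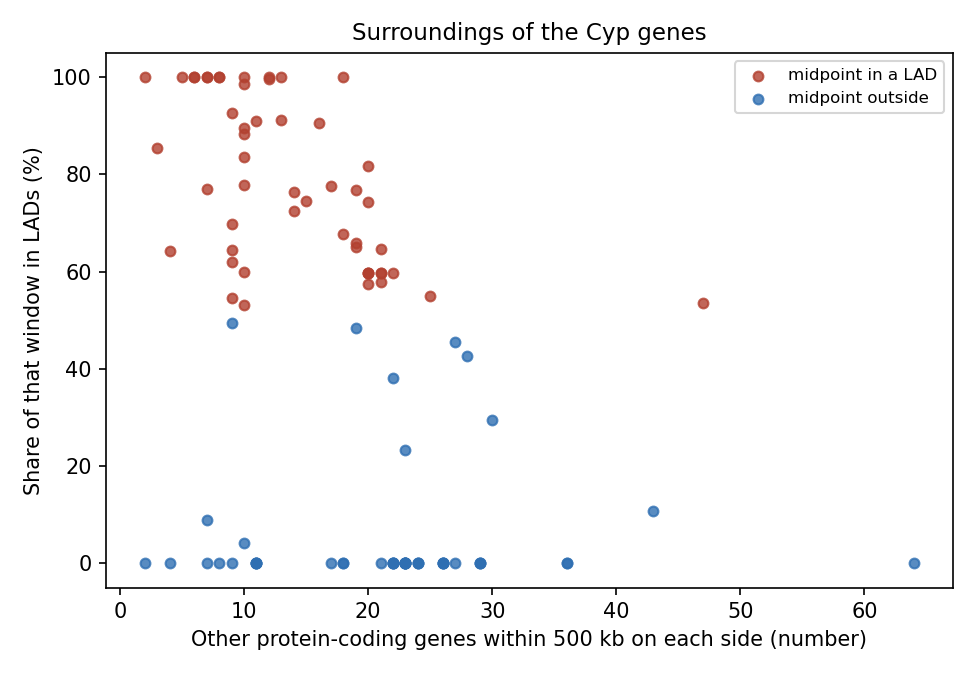
For each of the 99 P450 genes, the number of all other protein-coding genes within 500 kb on each side (x axis) and the percentage of that window in LADs (y axis), with genes in LADs in red and outside in blue. Most blue points lie at 0%, and the red point far to the right is Cyp2e1, with 47 neighbours.

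The gene bodies differed in length too. The median was 29.8 kb (7.73 to 222 kb) for P450 genes in LADs and 14.1 kb (1.95 to 102 kb) for those outside. Over all protein-coding genes the order was the reverse, with 10.2 kb in LADs and 18.6 kb outside. The 8 Cyp2d genes, all outside, measured at most 9.73 kb. The 4 Cyp2a genes, all in a LAD, measured 7.73 to 7.93 kb, so short genes lay on both sides. Genes of 1 subfamily share loci, and the medians of the members rest on few places. Cyp2c39 had the 222 kb body, and its annotated span encloses that of Cyp2c38, so the positions of these genes are not separate. The 46 genes outside with a LAD on either side lay in 21 LAD-free intervals, each longer than 1 Mb. Of the 15923 protein-coding genes outside with a LAD on either side, 84.3% lay in intervals longer than 1 Mb.

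Pseudogenes of the P450 families were placed in the same way. Of 34, 19 (55.9%) were in LADs, near the 51.0% of all pseudogenes in the table. Cyp2c73-ps, alone on chromosome 14 and beside no P450 gene, was 1607 kb inside a LAD, deeper than any of the 99 genes. All 11 pseudogenes of the Cyp2d group were outside, like its genes. The 3 pseudogenes beside the Cyp2j genes were inside, as were the 4 beside Cyp4x1 to Cyp4b1 and the 4 in the Cyp2a and Cyp2b locus. Next to the Cyp2c genes 3 of 4 were inside. The fourth, Cyp2c52-ps, lay 40.8 kb outside the border that crosses Cyp2c55. Cyp3a61-ps1 lay 36.7 kb inside a LAD on chromosome 5 (138383790 to 138391594), which was the LAD nearest to Cyp3a13.

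Genes that work with the P450 enzymes were placed in the same way. Their lists are short, and their counts were not tested against the 23.8% of all protein-coding genes in LADs. Of 6 electron donor genes 1 was inside, namely Cyb5a (132 kb from the border), which encodes cytochrome b5. Por, the reductase that serves the P450 enzymes of the endoplasmic reticulum, lay 1658 kb outside, and Fdx1, which serves those of mitochondria, 197 kb outside. Among 11 genes for regulators, 1 was inside, the bile acid receptor gene Nr1h4 (164 kb). The receptor genes for foreign compounds were outside, Nr1i2 at 645 kb, Nr1i3 at 323 kb and Ahr at 861 kb. Of 11 genes for other steps of steroid and bile acid synthesis, 2 were inside. These were the dehydrogenase genes Hsd3b1 (217 kb) and Hsd3b2 (147 kb), while Star, which brings cholesterol to Cyp11a1, was 1596 kb outside. Both P450 genes without a Cyp symbol, Tbxas1 (995 kb) and Ptgis (1764 kb), were outside.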

How the data were processed

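Positions of LADs in base pairs (start and end) were deposited by the authors as 1 merged list, read as the pooled result of the 2 Lamin B1 libraries, which rests only on the word merged in its name. Bowtie2 and mm10 are named in the submitters' processing notes. The domain caller and its settings, and whether IgG or spike-in reads entered them, are not given in the sources used here. Every domain (100%) was a whole number of 2.5 kb steps long to within 125 bp, and no gap was shorter than 52499 bp, so borders are placed in steps of that size and shorter interruptions do not appear. Starts were shifted to count from 1.

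Genes, pseudogenes and promoter windows came from RefSeq tables of GRCm38.p6. Overlaps, distances and windows were computed with Python 3.11.15, numpy 2.4.6 and pandas 2.3.3, tested on simulated domains and checked with bedtools 2.31.1. Promoters were aligned with Biopython 1.88 (global). Where a gene had several windows, the outermost start was used. By the rule for naming, all steroid, sterol, vitamin D, retinoic acid and Cyp1 genes, the ends and exceptions of clusters, genes cut by borders, the 5 deepest and 5 farthest genes and flanking genes are named, and some further cluster members and neighbours were named after their values were seen. The members and lists were chosen with earlier results of these data known. The 12 alternatives are given in the closing section.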

Additional observations from a re-analysis of the deposited data

How the results depend on the processing

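The counts of P450 genes in LADs were recomputed under 12 alternatives, giving 74 values, and all 74 stayed within 1.5 times the reported count. The alternatives were the start site, the whole body or any overlap in place of the midpoint, LADs of at least 100 or 500 kb, joining across gaps of at most 100 or 250 kb, borders trimmed by 10 or 50 kb or extended by 50 kb, and cluster distances of 100 or 500 kb. The settings for LAD length and joining could not change the call of a P450 gene. All LADs that held such genes exceeded 500 kb, and all gaps between LADs that held them exceeded 1 Mb. Of 99 genes, 47 to 55 were in LADs, beside 20.6% to 28.4% of all protein-coding genes. The count was 27 to 34 for Cyp2, 8 for Cyp3a, 9 or 10 for Cyp4, 2 for steroid and sterol enzymes, 43 to 50 for clustered and 4 to 6 for single genes. The calls of 8 genes changed under at least 1 alternative: Cyp4x1, Cyp2c55, Cyp2c65, Cyp2c70, Cyp2a12, Cyp2e1, Cyp2b10 and Cyp2f2. All 8 lay within 50 kb of a border, where trimming or extending by 50 kb changes a call by construction. For the 77 genes with a start site in the promoter table, start and midpoint gave the same call in 77, and the other genes kept the midpoint. Leaving out a Lamin B1 replicate was not run, and no paired analysis was possible because the list has no values per library. The read depth is unknown.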

Other observations

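Other families of drug metabolism, which conjugate, oxidise or hydrolyse foreign and endogenous compounds, were placed by the same rule, to be read beside the 23.8% of all protein-coding genes in LADs. All 10 Ugt2 glucuronosyltransferase genes on chromosome 5 lay in LADs, and none of the 9 Ugt1 genes did, at 2455 to 2534 kb from a LAD. Of the carboxylesterase genes, 16 of 19 were inside, and Ces3a (37.4 kb), Ces3b (71.0 kb) and Ces4a (123 kb) lay outside. The count was 16 of 21 for sulfotransferases, 1 of 22 for glutathione transferases (Gsta3, 45.6 kb from the border) and 1 of 7 for flavin monooxygenases (Fmo9, 267 kb from the border). Genes of 1 family share loci, and no test was run.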
